A study of Mus musculus with 4 samples.

Results

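Peaks of antibodies to the Ikaros family factors Eos (encoded by Ikzf4) and Helios (encoded by Ikzf2) were examined at 5 genes of the transcription machinery in mouse regulatory T cells: Ints3, Ints4 and Ints9, which encode subunits of the Integrator complex, and Polr2a and Polr2i, which encode subunits of RNA polymerase II. A peak was taken when its summit lay inside 1 of these genes or when the nearest end of a protein-coding gene, within 100 kb, belonged to it. This gave 7 of 1575 peaks, namely 3 of 1106 in the anti-Eos list and 4 of 469 in the anti-Helios list. The genes were chosen by the presence of listed peaks in these same libraries, so that their number and their folds are descriptions and no test was made on them.

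The study carried out chromatin immunoprecipitation with sequencing (ChIP-seq), in which an antibody recovers the DNA bound by its target, on Treg cells from mouse spleen purified with a CD4+CD25+ isolation kit. The 4 libraries were wild-type and Eos knockout cells, each with anti-Eos and with anti-Helios, with 1 library per group. The knockout mice carried Eos-flox and Foxp3-Cre, which deletes in cells that express Foxp3, and their 2 libraries were not analysed here. The labels name no allele or treatment for the wild-type mice and no age, and whether cells of several mice were pooled is not given. With 1 library per group there is no replicate error, and every difference below is between 2 libraries, not between the factors. The fold of a peak is the authors' enrichment over a control library that is not named in the sources used here. Should it be the matching library of knockout cells, a fold would compare genotypes and would not measure binding of Helios. This was not tested.

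RNA polymerase II transcribes protein-coding genes and most small nuclear RNA (snRNA) genes. Polr2a encodes its largest subunit, which holds part of the active site and the C-terminal repeat domain that is phosphorylated during the transcription cycle, and Polr2i encodes a small subunit known as RPB9, which contributes to accurate transcription. Integrator binds the polymerase near the start of genes, cleaves the nascent RNA and thereby forms the 3′ ends of snRNAs and ends transcription early at many protein-coding genes. Ints9 forms the cleavage module with Ints4 and the nuclease Ints11, and Ints3 also forms the SOSS complex of the DNA damage response with Nabp1 or Nabp2 and Inip.

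All 7 summits lay close to an annotated end of their gene, between 19 and 312 bp away, although the rule allowed 100 kb. For Ints3, Ints4, Polr2a and Polr2i the RefSeq promoter table (GRCm38.p6), which gives 250 bases before and 50 after a start, shows that this end is the start of the gene. Ints9 had no entry, and 4 of 5 genes were matched. In the whole lists, a gene end lay 1 kb or less from 39.5% (anti-Eos) and 50.96% (anti-Helios) of the summits. Within 1 kb of a start in the promoter table lay 393 of the 1093 anti-Eos summits on chromosomes with entries (36.0%) and 225 of 460 anti-Helios summits (48.9%). The next summits that the rule left out were 38.3 kb (anti-Eos) and 38.2 kb (anti-Helios) from an end of Ints4, where another gene end was nearer, so no member was near the limit of the rule.

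The sequences below are those of RefSeq (GRCm38.p6) under or beside the peaks, shown because the Ikaros family recognises a short core, GGGAA. Except at Polr2a, where the stretch shown holds neither summit, they also place the summits near the gene starts. Capitals mark GGGAA or its reverse complement. Each is written 5′ to 3′ on the strand of the gene. The first is the whole anti-Eos peak at Polr2i, chr7:30231877-30232039, plus strand, which lies before the start of the gene.

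Polr2i: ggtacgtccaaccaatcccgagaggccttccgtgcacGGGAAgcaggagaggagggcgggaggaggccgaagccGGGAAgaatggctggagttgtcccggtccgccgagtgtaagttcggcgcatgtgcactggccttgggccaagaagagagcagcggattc

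The part of the anti-Helios peak at Ints4 that lies before the gene is chr7:97480903-97480950, plus strand.

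Ints4: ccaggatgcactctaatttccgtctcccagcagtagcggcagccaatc

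At Ints3, the 30 bases with the anti-Helios summit (the second base from the 3′ end shown) are chr3:90433596-90433625, minus strand, just inside the gene. This stretch was cut to begin at a GGGAA. The promoter table reaches only to base 90433587 there, so the rest of the peak, which extends into the gene to base 90433336, was not searched.

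Ints3: GGGAAaaggccagtccgccgtcgtcggctt

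At Polr2a the table holds the promoter, chr11:69758634-69758883, minus strand, of which the anti-Eos peak covers the last 31 bases, while both summits lie beyond it inside the gene.

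Polr2a: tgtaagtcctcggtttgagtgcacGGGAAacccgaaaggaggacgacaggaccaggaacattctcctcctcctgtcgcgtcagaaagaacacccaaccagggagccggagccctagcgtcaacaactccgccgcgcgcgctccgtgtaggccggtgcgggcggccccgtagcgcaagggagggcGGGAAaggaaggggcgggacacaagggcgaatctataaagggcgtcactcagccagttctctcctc

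The motifs searched, on both strands, were spelled as follows. The core of the Ikaros family was GGGAA. Its longer form carried 1 more base at the front, TGGGAA, so that every match of it is also a match of the core. The form bound by ETS factors was CCGGAAG. The core bound by the factor NFY was CCAAT, and the GC box, bound by Sp1 and its relatives, was GGGCGG. In the Polr2i peak the centres of the Ikaros cores lay 13 and 24 bp from the anti-Eos summit, and the centre of a GC box 3 bp from it. In the Ints3 stretch the Ikaros core was centred 26 bp from the anti-Helios summit. The Ints4 stretch held no Ikaros core, and its NFY core was centred 15 bp from the anti-Helios summit. The promoter table reaches only to base 97481005 there, so the rest of the Ints4 peak, to base 97481039, was not searched. At Polr2a the Ikaros cores of the promoter were 374 and 534 bp from the anti-Eos summit, and the bases under that summit were not in the table.

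The full promoter windows of 300 bases held 2 Ikaros cores each at Ints3, Polr2a and Polr2i and 0 at Ints4. Of 21263 windows of protein-coding genes, 63.0% held the core, so a match is common. The share was 78.1% of the 274 windows that contain an anti-Eos summit and 79.6% of the 162 with an anti-Helios summit. Of the windows of these 4 genes, that of Polr2i contains an anti-Eos summit, those of Ints3 and Ints4 an anti-Helios summit, and that of Polr2a neither. The shares below are therefore given as background only. The ETS form was found in 0 of the windows of these 4 genes, against 11.6% of all windows, 31.4% of those with an anti-Eos summit and 32.1% of those with an anti-Helios summit. The longer Ikaros form was also in 0 of these 4 windows, against 24.5% of all, 27.0% of those with an anti-Eos summit and 31.5% of those with an anti-Helios summit. The GC box stood 3 times in the window of Polr2a and 1 time in that of Polr2i, and in 46.2% of all windows, 60.9% of those with an anti-Eos summit and 67.3% of those with an anti-Helios summit. The NFY core stood 2 times at Ints3 and at Polr2i, 1 time at Ints4 and 0 times at Polr2a, and in 38.2% of all windows, 33.9% of those with an anti-Eos summit and 36.4% of those with an anti-Helios summit. A match is a description, not a site.

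The base composition of the windows differed among the 4 genes. Polr2a had 63.7% G and C with 30 CpG dinucleotides, more CpG than 84.6% of all windows, and Polr2i 60.7% with 24. Ints3 was similar, with 60% and 23 CpG. Ints4 had 50% and 8 CpG, fewer than the median of 13 over all windows, whose median G and C content was 56.3%.

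Of the Integrator genes, Ints9 carried the highest folds. The anti-Eos peak (chr14:64949798-64950252) had a fold of 21.2, rank 12 of 1106, and a -log10 q of 45.4. The anti-Helios peak (chr14:64949863-64950123) had a fold of 13.3, rank 23 of 469, and a -log10 q of 24.7. The anti-Helios peak lay wholly within the anti-Eos peak, sharing 261 bp, and the summits were 13 bp apart. They were 42 bp (anti-Eos) and 55 bp (anti-Helios) outside the annotated end of Ints9 at base 64950045.

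Ints9 shares this interval with Hmbox1, which encodes a homeobox protein that binds telomeric repeats. The annotated ends of these genes face each other across 145 bp, and both summits fell in that gap, with the end of Hmbox1 at 104 bp from the anti-Eos and 91 bp from the anti-Helios summit. Ints9 and Hmbox1 are known as a head-to-head pair transcribed away from each other. The peaks can therefore not be given to Ints9 rather than to Hmbox1, and Ints9 is named because its end is the nearer.

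The number of fragments behind a summit was worked out from the authors' fold and p of that peak. The anti-Eos summit at Ints9 rested on 41 fragments (95% exact Poisson interval 29.4 to 55.6) over a local background of 0.980 scaled fragments. The anti-Helios summit rested on 35 (24.4 to 48.7) over 1.44 scaled fragments. Each anti-Helios fragment counts as 0.895 on that scale, so anti-Helios counts and backgrounds are not in the same unit. Over the whole lists the median was 14 fragments in the anti-Eos list and 18 in the anti-Helios list, so both Ints9 summits were among the best covered, with fewer fragments at 98.2% and 92.5% of the peaks of their lists. These intervals cover counting error only.

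**Figure D1:**
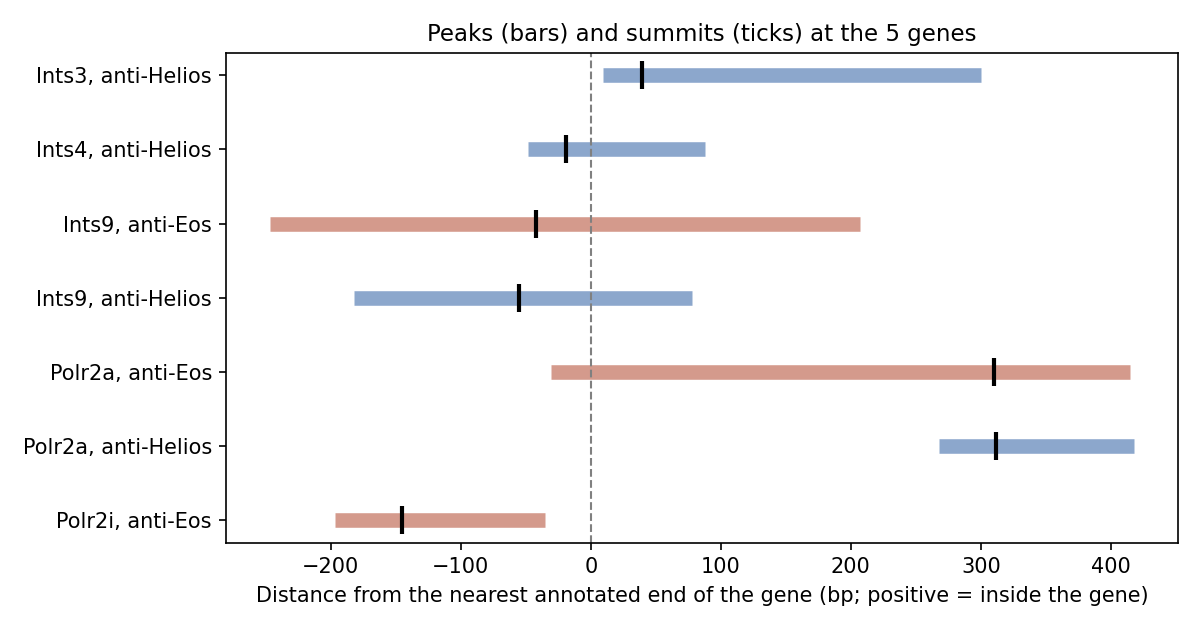
Peaks (bars) and summits (black ticks) at the 5 genes, with the distance in bp from the nearest annotated end of the gene on the x axis (positive values are inside the gene) and 1 line per gene and antibody, red for anti-Eos and blue for anti-Helios. The pairs at Ints9 and at Polr2a have summits 13 and 2 bp apart, and all 7 summits lie within 312 bp of the end.

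Ints3 and Ints4 carried anti-Helios peaks and no listed anti-Eos peak. The Ints3 peak (chr3:90433336-90433627) had a fold of 6.94, rank 295 of 469, with a -log10 q of 6.02 and 15 fragments (exact Poisson interval 8.40 to 24.7) over a local background of 1.08. Its summit lay 39 bp inside the gene, and its body extended further into the gene. The nearest anti-Eos summit was 137 kb from an end of Ints3. No other gene end was within 5 kb of the Ints3 summit.

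The Ints4 peak (chr7:97480903-97481039) was among the weakest of its list. Its fold was 4.05, rank 455 of 469, and its -log10 q of 2.53 was close to 2.24, the smallest in the list. It rested on 17 fragments (exact Poisson interval 9.90 to 27.2), close to the list's median of 18, over a local background of 3.0 scaled fragments against a median of 1.0. The summit lay 19 bp before the annotated end of Ints4 and 24 bp before the start in the promoter table. With a -log10 q of at least 5 required, Ints4 was no longer counted. No other gene end lay within 5 kb.

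The absence of a listed peak is not a measured absence of signal. Places with a -log10 q below 2.08 (anti-Eos) or 2.24 (anti-Helios) are not in the lists, and the value at such a place is not known. Whether the antibodies differed at Ints3 and Ints4 was therefore not tested.

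Of the polymerase genes, Polr2a carried peaks of both antibodies at almost the same base. The anti-Eos peak (chr11:69758218-69758664) had a fold of 9.35, rank 247 of 1106, a -log10 q of 15.9 and 26 fragments (exact Poisson interval 17.0 to 38.1). The anti-Helios peak (chr11:69758215-69758365) had a fold of 10.5, rank 64 of 469, a -log10 q of 19.4 and 34 fragments (23.5 to 47.5). The local background was 1.89 (anti-Eos) and 2.0 (anti-Helios) scaled fragments, above the medians of 0.943 and 1.0. The summits were 2 bp apart.

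Both summits lay inside Polr2a, 310 bp (anti-Eos) and 312 bp (anti-Helios) downstream of its start at base 69758633, the farthest from a start among the 4 genes in the promoter table. The anti-Eos peak was 447 bp wide and reached back across the start, whereas the anti-Helios peak was 151 bp wide and did not, so that 148 bp were shared. Exons and introns were not given in the table used here. The nearest other gene was Slc35g3, on the same strand, whose end lay 1561 bp from the anti-Eos summit and 1563 bp from the anti-Helios summit.

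Among the 310 overlapping pairs of peaks in the 2 lists, the median distance between summits was 30.5 bp (interquartile range 13 to 64 bp). Summits lay within 2 bp in 16 pairs (5.16%), of which Polr2a is 1, and within 13 bp in 82 pairs (26.5%), which include Ints9. Within each list Ints9 had the higher fold of these genes, with 21.2 against 9.35 at Polr2a for anti-Eos and 13.3 against 10.5 for anti-Helios. The lists have different lengths and their controls are not known to be the same, so these folds are not compared between antibodies.

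Polr2i carried an anti-Eos peak (chr7:30231877-30232039) and no listed anti-Helios peak. Its fold was 12.8, rank 71 of 1106, with a -log10 q of 19.9. It rested on 23 fragments (exact Poisson interval 14.6 to 34.5) over a local background of 0.871. The summit lay 145 bp before the start of Polr2i. The nearest anti-Helios summit was 769 kb from the gene.

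The divergent partner of Polr2i is Tbcb, which encodes a cofactor for tubulin folding and lies on the minus strand. The RefSeq tables used here place the beginning of Tbcb differently. In the gene table Tbcb ends at base 30232197 and overlaps Polr2i by 124 bp, and the summit is inside Tbcb, 268 bp from that end. In the promoter table Tbcb starts at base 30231391, which leaves 683 bp between the starts of the genes, and the summit is between them, 538 bp before the start of Tbcb. By either table the peak can not be given to Polr2i alone. Ovol3, a zinc finger gene that overlaps the other end of Polr2i, lay 1368 bp from the summit.

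**Figure D2:**
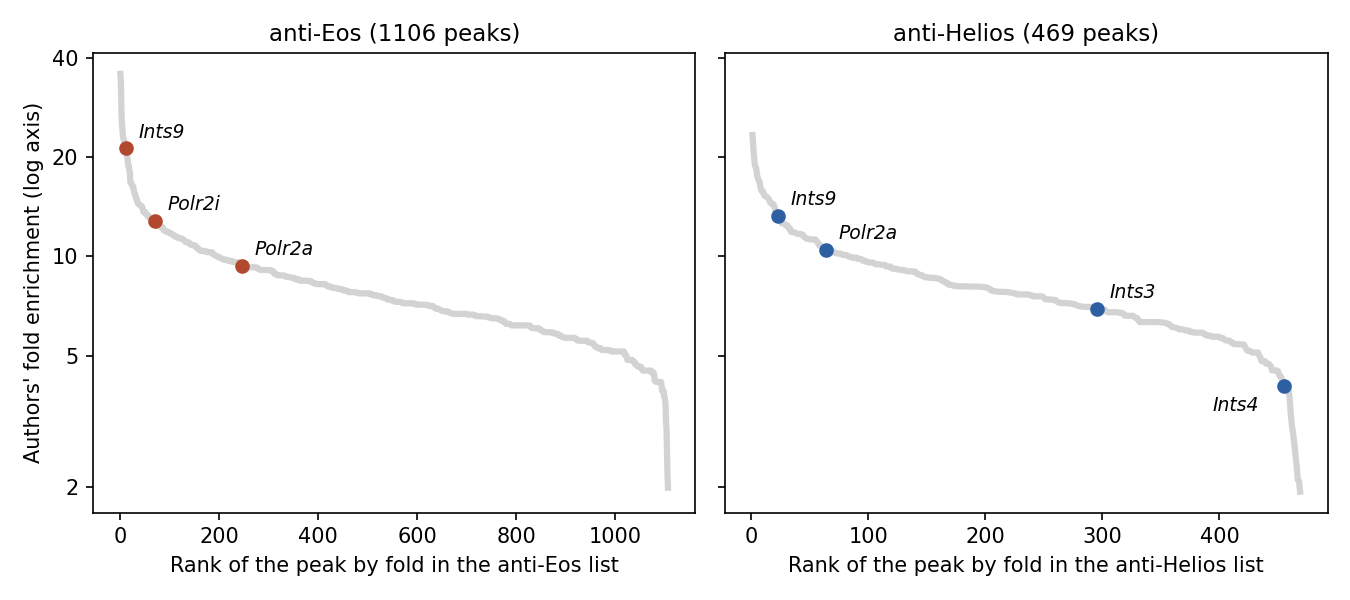
The authors' fold enrichment (y axis, log scale) of every peak against its rank in the anti-Eos list (left) and the anti-Helios list (right), with grey for all peaks and dots for peaks of the 5 genes. Ints9 stands near the top of both lists, and Ints4, with a fold of 4.05, near the bottom of the anti-Helios list.

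**Figure D3:**
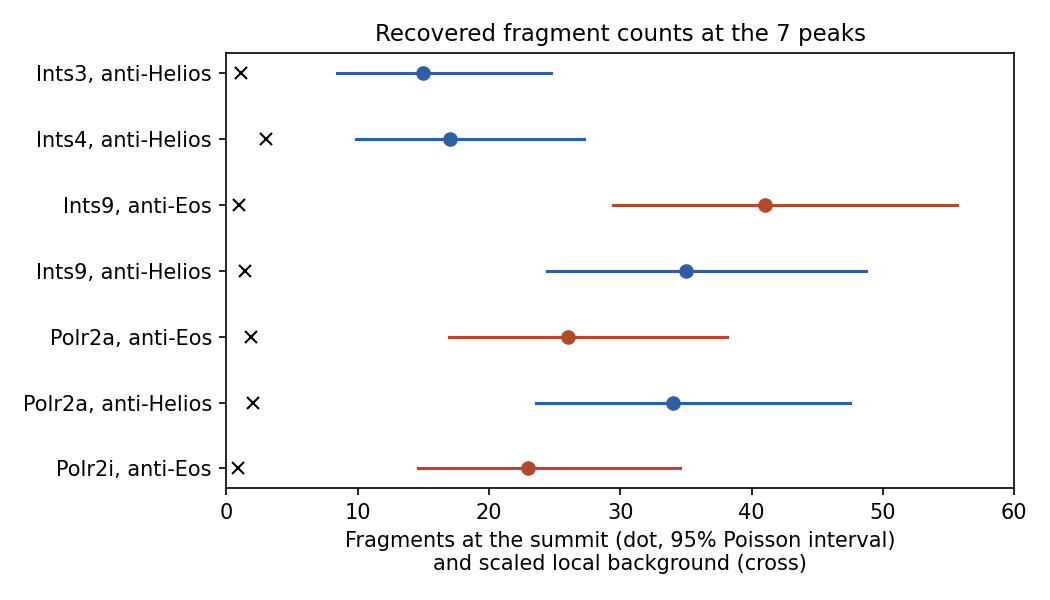
Fragments at the summit of each of the 7 peaks (dots, with 95% exact Poisson intervals as lines) and the scaled local background (crosses), red for anti-Eos and blue for anti-Helios. The counts run from 15 at Ints3 to 41 at Ints9, and every interval lies above the local background, as the selection of peaks requires. Counts are unscaled, and each anti-Helios fragment counts as 0.895 on the scale of the background.

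The other genes of the Integrator and polymerase lists set these 5 in context. Assigned summits were found at 4.38% of all 21887 protein-coding genes with anti-Eos and at 2.12% with anti-Helios, at 4.96% with either antibody and at 1.54% with both. Summits were assigned to 2 of 17 Integrator and SOSS genes with anti-Eos and to 4 of 17 with anti-Helios. Of the 13 polymerase genes, listed by name from Polr2a to Polr2m, 2 had an anti-Eos and 1 an anti-Helios summit. The members were chosen for their peaks, so these counts cannot be read against the background. Without the 3 Integrator members, 1 of the 14 remaining genes had a summit, with both antibodies. It was Nabp1, a single-stranded DNA-binding partner of Ints3. Of the 11 polymerase genes other than Polr2a and Polr2i, 0 had a summit with either antibody. Genes with peaks had been taken out as members, so the counts among the remaining genes cannot be read against the background either.

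The shared place at Nabp1 lay inside the gene, 132 bp (anti-Eos) and 163 bp (anti-Helios) downstream of the start in the promoter table. Its folds were 7.72 with anti-Eos, on 14 fragments, and 9.17 with anti-Helios, on 16 fragments, with summits 31 bp apart. A second anti-Eos summit (fold 6.65, 10 fragments) was assigned to Nabp1 from 99377 bp away, just within the limit of 100 kb, and lay inside the long noncoding RNA gene Gm17767. Of the genes of the SOSS complex, Ints3 had an anti-Helios summit next to the start, Nabp1 had summits of both antibodies there, and Nabp2 and Inip had none. Ints3 was chosen for its peak, so this describes single genes and is not a result about the complex.

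Among the 26 Integrator and polymerase genes without an anti-Eos summit, the nearest such summit lay at a median of 480 kb, and for Polr2e at 11.5 kb. For the 25 genes without an anti-Helios summit the median was 1578 kb and the smallest distance 103 kb, again at Polr2e. The anti-Helios list is the shorter, with 469 peaks against 1106, so these distances are not compared between antibodies. Ints11, which encodes the catalytic nuclease, had its nearest anti-Eos summit at 38.0 kb and its nearest anti-Helios summit at 133 kb. Genes thus carried a summit within 312 bp of an end or, apart from the second Nabp1 summit, had none assigned.

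**Figure D4:**
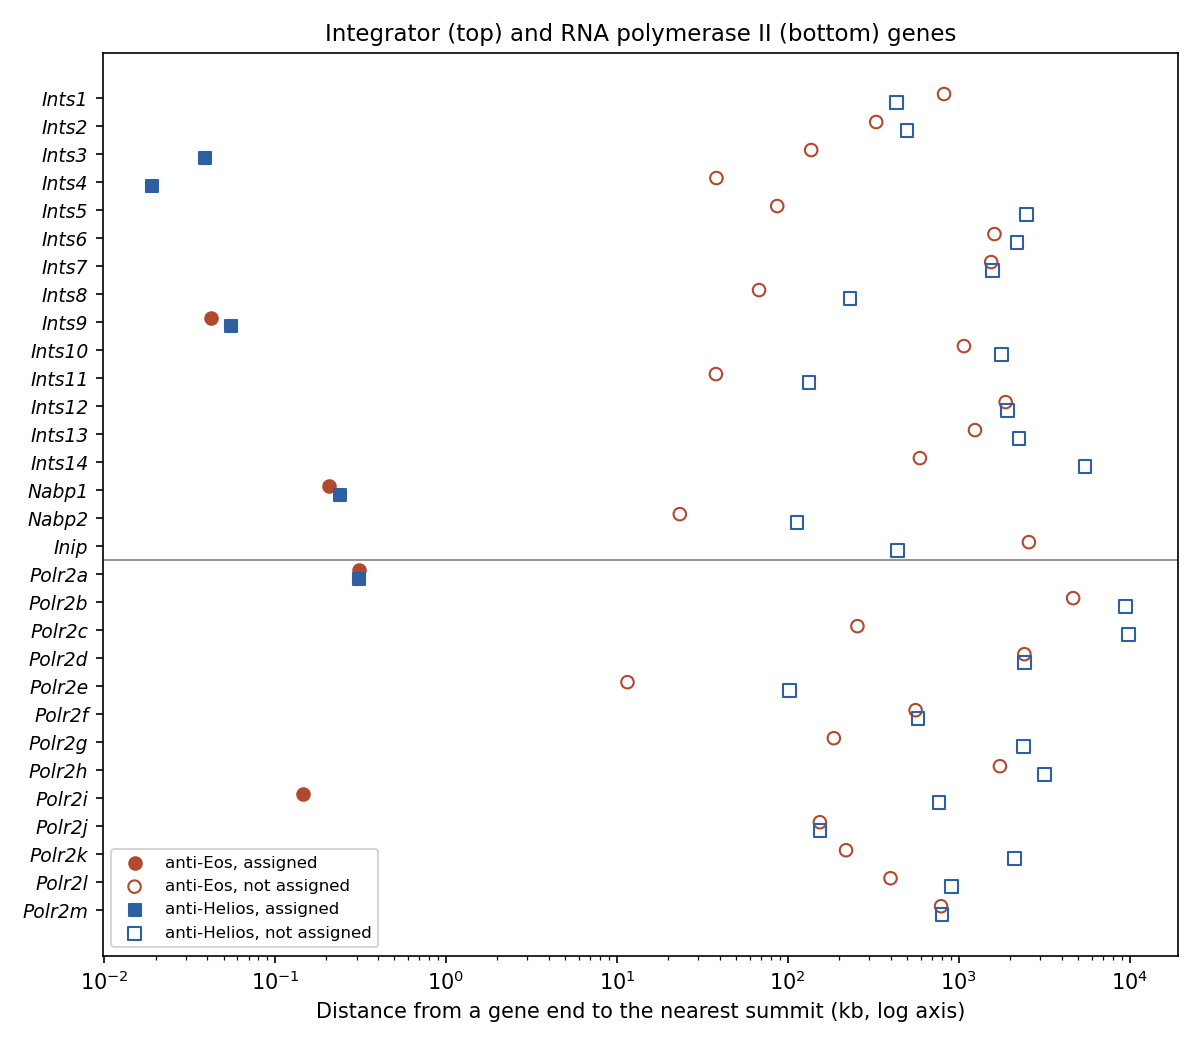
Distance in kb (log axis) from either end of each Integrator gene (top) and RNA polymerase II gene (bottom) to the nearest summit, with red circles for anti-Eos and blue squares for anti-Helios, filled where the summit was assigned to the gene. Filled symbols lie at 0.312 kb or less and open ones at 11.5 kb or more.

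Of 57 related genes, 4 had an anti-Eos summit (7.02%, beside 4.38% of all protein-coding genes) and 3 an anti-Helios summit (5.26%, beside 2.12%). With each antibody, 2 of these genes were Ppp2ca and Ppp2r1a. The list was chosen with earlier results of these data known, so these shares cannot be read against the background. Factors of pausing and elongation, which hold or release the polymerase after initiation, had 0 of 22 genes with an anti-Eos summit and 1 of 22 with an anti-Helios summit. That summit, at Supt4a (fold 7.77), lay 6031 bp beyond the gene. The general transcription factors, which place the polymerase at the start, had 0 of 19 with either antibody. Among 16 genes of snRNA activation, 3′ end cleavage and the Integrator phosphatase, 4 had an anti-Eos and 2 an anti-Helios summit.

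Ppp2r1a and Ppp2ca encode the scaffold and catalytic subunits of protein phosphatase 2A, which joins Integrator and removes phosphate from the polymerase. At Ppp2r1a the folds were 12.9 (anti-Eos) and 9.45 (anti-Helios) with summits 1 bp apart, 9 and 10 bp inside the gene, and at Ppp2ca 5.48 and 9.90 with summits at the same base, 167 bp before it. Cstf2, a subunit of the cleavage stimulation factor, had an anti-Eos summit 14 bp before its start (fold 8.43, 12 fragments). At Cpsf3, the cleavage nuclease of mRNA 3′ ends and a relative of Ints11, an anti-Eos summit (fold 6.00, 22 fragments) lay 38 bp inside the gene and 19 bp from the end of the overlapping partner Itgb1bp1, on the opposite strand.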

How the data were processed

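Per the submitters' processing notes, the tools were deepTools 3.5.1, SAMtools 1.17, Picard, BWA 0.7.1 and Cutadapt 4.4, on GRCm38.p6 (mm10). The caller of the peaks and its control were not given in the sources used here. The deposited lists give, per peak and library, the authors' ratio (fold enrichment), -log10 p-value and -log10 q-value, a score and the summit offset (used as a position).

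The members and gene lists were chosen with earlier results of these data known. All members, genes with ends within 5 kb of their summits and every listed gene with a summit are named. Python 3.11.15 with SciPy 1.17.1 was used. Summits were assigned to protein-coding genes of RefSeq GRCm38.p6, inside a gene or by its nearest end within 100 kb, and overlap meant at least 1 bp. Fragments were recovered by solving the fold and p (Poisson tail) together. The fold was taken as a ratio with 1 added to the scaled fragments and to the local background. Fragments were scaled by 1 (anti-Eos) and 0.895 (anti-Helios). For each trial count the background was set to give the deposited fold, so only p was left to match. It was matched within a relative error of 0.0001 for 100% of peaks. The scale of 0.895 was itself picked for the best match. This formula for fold and p is an inference from the values. Only the solving step and the assignment, not the formula, were tested on simulated data. Ints15 was not matched in the gene table and was left out. Sequences are from the RefSeq promoter table.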

Additional observations from a re-analysis of the deposited data

How the results depend on the processing

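Of 35 recomputed counts, 34 stayed within 1.5 times the reported value when summits were assigned within 10 or 1 kb, when a -log10 q of at least 5 was required, when genes of all biotypes were used, or when overlap was defined by summits within 100 bp. Apart from Supt4a, every listed gene with an assigned summit has a summit 312 bp or less from an end. The limits of 10 and 1 kb could therefore change only the count that includes Supt4a. All other counts of genes at these limits were fixed in advance and say nothing about robustness. The exception among the 35 was the number of anti-Eos peaks of the 5 genes that overlap an anti-Helios peak. It was 2 of 3 and became 1 of 3 when at least 50% of each peak had to overlap, since the peaks at Polr2a share 148 bp and the anti-Eos peak there is 447 bp wide. With a -log10 q of at least 5 the genes with an anti-Helios summit were 3 of 5, without Ints4. Within 1 kb, the related genes with an anti-Helios summit were 2, without Supt4a. No paired analysis was possible because each group has 1 library. With 15 to 41 fragments per summit, the fold of a single peak is imprecise.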
